A study of Mus musculus with 18 samples.

Results

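Low-CTCF promoters were taken from the 101256 union peaks of a ChIP-seq experiment on mouse heart as the peaks on chromosomes 1 to 19 that are annotated to the promoter of a protein-coding gene, are shorter than 5000 nt, and have a mean RNA polymerase II (Pol II) value of at least 50 over 6 libraries and a mean CTCF value below 20 over 6 libraries. There were 774 such peaks in 728 genes, which is 3.01% of the 25702 coding-promoter peaks of that length on these chromosomes. The measured values of both antibodies chose these peaks, so their Pol II and CTCF levels are given as a description with no test. Chromatin came from pooled ventricles of adult mice of 3 genotypes, with 2 Pol II libraries, 2 CTCF libraries and 1 IgG library each. WT is the label of the controls. *Trdn-as* KO mice are homozygous for an inserted polyadenylation site in the first exon of *Trdn-as*, a long non-coding RNA antisense to the triadin gene *Trdn*. *Mettl3* KO mice are labelled Mettl3lox/lox:alphaMHC-MerCreMerpos, so tamoxifen-induced loss of the m6A RNA methyltransferase *Mettl3* is limited to cardiomyocytes by the alphaMHC promoter, while the other cells of the ventricle keep the gene. Tamoxifen is described for the *Mettl3* line, and the labels do not say whether the WT animals received it.

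Pol II transcribes all protein-coding genes, and at many of them it accumulates just downstream of the start before it is released into the gene. CTCF is a zinc finger protein that binds a long GC-rich motif, stops cohesin on chromatin and marks the borders of loops and domains, and many active promoters in CpG islands carry it. Promoters outside CpG islands more often belong to genes used by a single cell type, and some hold a TATA box near the start.

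All values are reads per peak divided by a size factor per library, rounded to whole numbers, and reads within peaks numbered 1987560 to 4953772 in the Pol II libraries and 273467 to 813040 in the IgG libraries. The size factors were set over all antibodies together, so a value of 1 stands for different read numbers in different libraries. This is why IgG, with few reads, has a median value of 21.0 at the low-CTCF promoters and CTCF, with many reads, has a median of 15.5. One library stood apart, since 18.6% of the reads of the second *Trdn-as* KO Pol II library lay in peaks, against 35.5% to 42.6% in the other 5. At the low-CTCF promoters that library lay at a median value of 57 and its partner at 74. The Pol II sum over 8 cardiomyocyte markers, among them *Myh6* and *Tnnt2*, ranged from 22910 to 31304 over the libraries, whereas the sum over the neuronal genes with a promoter peak ranged from 1 to 11, so the labelled tissue is borne out. The 6 peaks of chromosome Y summed to 0 in both *Trdn-as* KO libraries and to 223 to 326 in the other 4, so the sex of the animals and the *Trdn-as* genotype cannot be told apart. The *Mettl3* promoter held Pol II at a mean of 203, and this peak does not show whether the floxed part of the gene was removed.

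To set the low-CTCF promoters in context, they were placed beside the 9821 coding promoters that reach both thresholds. The low-CTCF promoters were short, with a median length of 712 nt against 1410 nt, and carried a median Pol II value of 68.2 against 241. Most lay close to the Pol II threshold, as 628 of the 774 had a mean under 100 and 30 had a mean of 150 or more. Per kilobase of peak the medians were 99.4 and 171. The CTCF means were crowded at the other threshold, with 420 members at 15 or more and 5 below 5. Just inside the Pol II threshold were a peak of *Sox18* and a peak of *Art5*, both at a mean of 50, and just outside were *Samd13* and *Usp19* at 49.8. Just inside the CTCF threshold were *Cavin2* and *Rem1* at 19.8, and just outside *Pdlim5* and *Cth* at 20. In the plot of Pol II against CTCF the members are the lower edge of one continuous cloud.

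**Figure D1:**
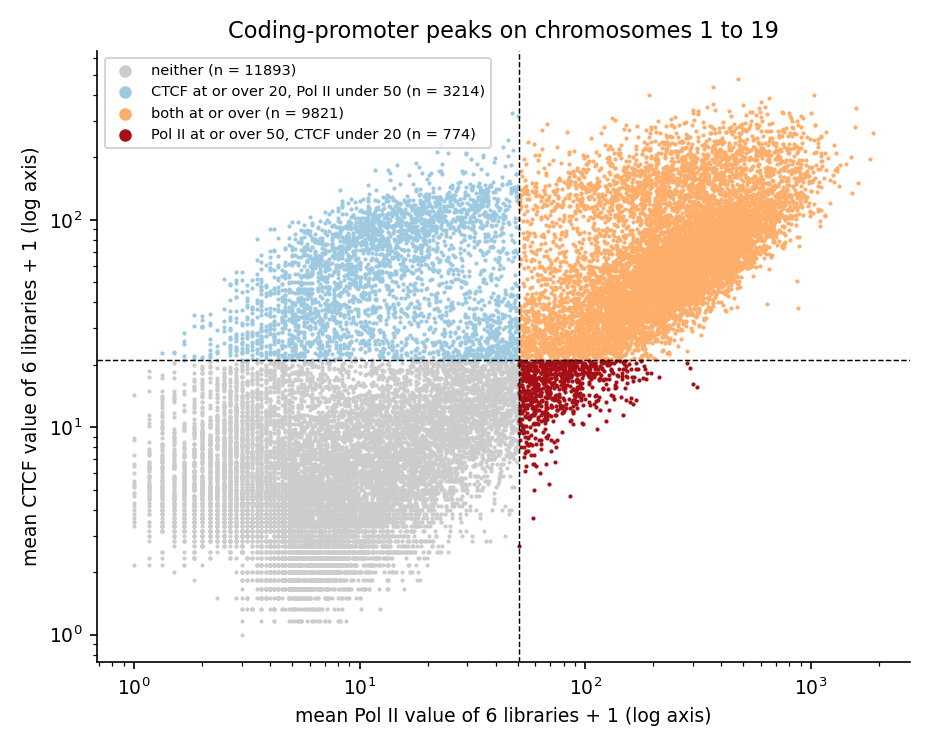
Mean Pol II value (x axis) against mean CTCF value (y axis), each over 6 libraries plus 1 on a log axis, for 25702 coding-promoter peaks, with dashed lines at the thresholds of 50 and 20. The 774 low-CTCF promoters (dark red) adjoin the 9821 promoters with both (orange) without a gap.

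Little CTCF did not mean CTCF at the level of IgG. Relative to library size in uniquely mapped reads, the 4 CTCF libraries of WT and *Trdn-as* KO hearts had 2.76 to 3.39 times as many reads at the 774 promoters as the IgG library of the same genotype. At the promoters that reach both thresholds the same ratio was 4.98 to 6.36. For Pol II the ratio to IgG was 4.95 to 12.9 at the low-CTCF promoters and 6.01 to 15.3 at the others, and the lowest value of each belongs to the second *Trdn-as* KO library. The CTCF libraries of *Mettl3* KO hearts have no value here because the worth of 1 read could not be resolved in them.

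The position of the peaks split the members into groups of nearly the same size. In 388 the peak centre lay within 500 nt of the annotated gene start, and in 386 it lay farther away, at a median distance of 2682.5 nt. Among promoters with both proteins, 73.9% were within 500 nt. Of the farther members, 274 lay downstream of the start and 112 upstream. For 242 of them the same gene had another peak within 500 nt of the start, with a median Pol II value of 212.5 at that peak, and in 194 of these 242 it held more Pol II than the member. That start-site peak reached both thresholds for 175 genes' members and was itself a low-CTCF promoter for 27. A total of 72 members also overlapped another coding gene that has a peak in the data. Counts of members and of calls that follow pool both kinds unless the position is named.

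The DNA at the start sites is shown for genes picked by the fixed rule, to let the CpG content of these promoters be seen. The windows run from 250 bases before to 50 bases after the start, from RefSeq on GRCm38.p6, 5′ to 3′, and capitals mark CpG dinucleotides. *Nmrk2* (chr10:81201988-81202287, minus strand), a nicotinamide riboside kinase gene expressed in muscle, and *Aqp1* (chr6:55336049-55336348, plus strand), the water channel of capillary endothelium, had the highest Pol II among low-CTCF promoters with a start-site peak and a single RefSeq window. *Ceacam1* (chr7:25477576-25477875, minus strand), a cell adhesion receptor, was lower in *Trdn-as* KO hearts. *Col3a1* (chr1:45311288-45311587, plus strand) and *Col5a3* (chr9:20815018-20815317, minus strand), fibrillar collagen genes, were higher in *Mettl3* KO hearts. *Polr2a* (chr11:69758584-69758883, minus strand), the gene of the largest Pol II subunit, had the most Pol II among start-site promoters with both proteins that have such a window and is printed for contrast.
Nmrk2: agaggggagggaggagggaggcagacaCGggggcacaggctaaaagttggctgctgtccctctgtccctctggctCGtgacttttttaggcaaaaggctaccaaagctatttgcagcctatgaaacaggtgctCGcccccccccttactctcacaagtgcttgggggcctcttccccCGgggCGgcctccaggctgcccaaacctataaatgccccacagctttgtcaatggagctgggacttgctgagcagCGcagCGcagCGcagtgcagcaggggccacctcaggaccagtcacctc
Aqp1: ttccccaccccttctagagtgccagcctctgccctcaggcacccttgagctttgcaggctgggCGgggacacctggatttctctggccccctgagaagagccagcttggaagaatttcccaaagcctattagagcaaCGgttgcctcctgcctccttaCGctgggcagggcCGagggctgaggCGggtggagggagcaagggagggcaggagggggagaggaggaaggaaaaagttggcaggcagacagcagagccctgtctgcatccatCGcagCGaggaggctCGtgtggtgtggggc
Ceacam1: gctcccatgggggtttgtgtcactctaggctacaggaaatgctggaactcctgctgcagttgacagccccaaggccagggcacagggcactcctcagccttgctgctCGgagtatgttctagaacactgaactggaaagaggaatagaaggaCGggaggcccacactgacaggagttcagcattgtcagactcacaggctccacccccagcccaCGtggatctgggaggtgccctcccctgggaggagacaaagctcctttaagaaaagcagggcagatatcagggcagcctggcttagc
Col3a1: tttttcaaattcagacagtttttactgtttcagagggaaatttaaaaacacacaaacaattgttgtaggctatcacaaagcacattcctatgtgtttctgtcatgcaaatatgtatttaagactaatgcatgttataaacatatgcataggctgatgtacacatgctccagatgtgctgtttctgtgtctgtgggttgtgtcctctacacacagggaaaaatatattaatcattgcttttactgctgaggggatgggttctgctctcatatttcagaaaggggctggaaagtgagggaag
Col5a3: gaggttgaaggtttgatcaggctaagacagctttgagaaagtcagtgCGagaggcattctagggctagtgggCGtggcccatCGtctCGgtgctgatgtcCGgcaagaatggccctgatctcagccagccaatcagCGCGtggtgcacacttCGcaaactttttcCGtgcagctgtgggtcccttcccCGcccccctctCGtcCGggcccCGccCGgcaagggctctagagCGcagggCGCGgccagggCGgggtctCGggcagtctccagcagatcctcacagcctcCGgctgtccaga
Polr2a: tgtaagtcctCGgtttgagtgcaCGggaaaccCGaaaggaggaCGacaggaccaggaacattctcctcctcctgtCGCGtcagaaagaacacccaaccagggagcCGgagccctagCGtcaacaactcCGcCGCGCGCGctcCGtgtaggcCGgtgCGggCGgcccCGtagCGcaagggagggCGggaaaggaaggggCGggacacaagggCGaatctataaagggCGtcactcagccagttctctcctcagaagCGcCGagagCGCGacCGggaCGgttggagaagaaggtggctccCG
The windows of *Nmrk2* and *Aqp1* hold 8 CpG each, that of *Ceacam1* 3, that of *Col3a1* 0 and that of *Col5a3* 20, whereas that of *Polr2a* holds 30. The *Col3a1* window has a GC content of 37.7% and contains the letters TATAAA, as do the windows of *Nmrk2* and *Polr2a*. Of the 728 member genes, 552 had an entry in the RefSeq table.

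The same measure was then taken over all start sites. Windows of 300 nt were read from the GRCm38 genome at the GENCODE vM21 gene start, by gene identifier, for 386 of the 387 genes with a member within 500 nt. The ratio of observed to expected CpG had a median of 0.567 in the low-CTCF promoters, 0.793 in 7233 genes with both proteins and 0.540 in all 20802 coding genes. It was under 0.6 in 56.2% of the low-CTCF promoters and in 20.5% of those with both. The median was 0.594 in promoters with CTCF but little Pol II (50.9% under 0.6) and 0.487 in those under both thresholds (63.5%), so a low ratio was not particular to the low-CTCF promoters. Promoters with both proteins whose Pol II lay in the range of the members had a median of 0.757 and 24.7% under 0.6, where only the range of 50 to 311.5 was matched and not the level within it. The members spread broadly, with quartiles of 0.323 and 0.752, as the histogram of the ratio shows.

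Short motifs were counted on both strands in the same windows, as a description without a test. The TATA box letters TATAAA were found in 12.4% of the low-CTCF start sites, in 5.94% of those with both proteins and in 12.7% of all coding genes. The GC box GGGCGG, bound by SP and KLF factors, was in 56.2%, 68.4% and 43.7%, in the same order. The ETS core CCGGAAG was in 10.4%, 20.4% and 11.0%. The core of the CTCF motif was in 1.81% of the low-CTCF start sites, 3.39% of those with both and 2.62% of all, and it was in 10.8% of the start sites of promoters with CTCF but little Pol II. The letters CATTCC, the MCAT element of muscle promoters, were in 15.5%, 11.1% and 13.5%.

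The members with the most Pol II included genes known from muscle, endothelium and stroma. *Nmrk2* (chr10:81037625-81038217 in GRCm39, centre 36 nt upstream of the start) led, with Pol II values of 276 and 284 for WT, 313 and 273 for *Trdn-as* KO, and for *Mettl3* KO 315 and 408. Its *Mettl3* KO libraries were above both WT libraries, but the difference did not pass the test (limma, log2 fold change 0.36, adjusted p = 0.33). Its CTCF values were between 12 and 17 in all 6 libraries. *Gm17428* was next with a mean of 299, but its peak (chr14:55215000-55217267) lies inside *Myh7*, the slow myosin heavy chain, and its values of 345 and 410 for WT, 323 and 228 for *Trdn-as* KO, and for *Mettl3* KO 252 and 237 did not pass the test (adjusted p = 0.077 for *Mettl3* KO). *Cox6a2*, the muscle form of a cytochrome c oxidase subunit, had a mean of 288 in a peak of 2413 nt that lay 3705 nt downstream of the start, and *Yipf7* a mean of 280. The order among these 4 is not firm, since their libraries overlap.

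The next places were held by *Sox17*, *Mgp*, *Sox18*, *Aqp1*, *Ppm1m* and *Dcn*. *Sox17*, an endothelial transcription factor with 3 members, had its highest at 211, with 222 and 212 for WT, 253 and 204 for *Trdn-as* KO, and for *Mettl3* KO 205 and 170. *Sox18*, its relative, had 186, and *Aqp1* had 184. The matrix gene *Mgp*, an inhibitor of calcification, had 195, with 153 and 164 for WT, 231 and 193 for *Trdn-as* KO, and for *Mettl3* KO 214 and 213. *Dcn*, the small proteoglycan decorin of fibroblasts, had 181, with 142 and 143 for WT, 195 and 147 for *Trdn-as* KO, and for *Mettl3* KO 225 and 234, and none of its differences passed the test (adjusted p = 0.089 for *Mettl3* KO against WT). *Ppm1m*, a protein phosphatase gene, had 183. In bulk ventricle, fewer cells of a type and less Pol II per cell cannot be told apart.

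Gene groups fell unevenly on the low-CTCF side. Of all coding-promoter peaks within the length limit and with Pol II at the threshold, 7.31% were low in CTCF. This share and those of the lists count peaks rather than genes. The marker peaks of *Myh6*, *Tnnt2*, *Actc1*, *Pln* and *Myl2* lay outside the classes compared and are not counted. A gene can also be named for another peak than its main one. The marker peaks of *Cdh5* and *Pdgfra* reached both thresholds, and other peaks of these genes were members. The fixed endothelial list had 9 of 23 such peaks low in CTCF (39.1%), in *Aplnr*, *Cdh5*, *Emcn*, *Sox17* and *Sox18*. The list of fibroblast and matrix genes had 9 of 27 (33.3%), in *Col3a1*, *Dcn*, *Fbln1*, *Fbln2*, *Gsn*, *Mmp2* and *Pdgfra*. The sarcomere list had 10 of 31 (32.3%), in *Ldb3*, *Myl3*, *Myom2*, *Myoz2*, *Synpo2l* and *Tpm2*, and the atrial natriuretic peptide gene *Nppa* was a member at a mean of 114. Core histone genes had 5 of 31 (16.1%), led by *H4c2* at 167, and immediate early genes 4 of 28 (14.3%), led by a flank of *Btg2* at 151. Macrophage genes had 2 of 3, *Cd68* at 96.5 and *Spi1* at 69.7.

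Genes of basic cell upkeep were nearer to the overall share or under it. There were 2 of 78 peaks for ribosomal proteins (2.56%, led by a flank of *Rps21* at 124), 1 of 65 for the mitochondrial ribosome (*Mrpl17* at 67.5), 3 of 70 for RNA binding and splicing (4.29%, led by *Rbm20* at 78.2), 1 of 30 for heat shock genes and chaperones (*Hspb8* at 67.7) and 2 of 42 for the Pol II machinery (*Nelfa* at 88.7). Oxidative phosphorylation had 6 of 76 (7.89%), translation factors 4 of 61 (led by *Eef1akmt4*, a methyltransferase of an elongation factor, at 122), fatty acid oxidation 3 of 29 (*Cpt2* at 109), glycolysis 2 of 22 (*Eno3* at 128), and the citrate cycle 2 of 27 (both *Idh2*). Calcium handling had 1 of 27, a peak of *Pln* at 150 that lay upstream of the start, and cardiac transcription factors 1 of 25 (*Myocd*). Proteasome, clock, m6A machinery and CTCF and cohesin genes had 0 of 37, 0 of 20, 0 of 16 and 0 of 13. Zinc finger genes, the largest group, had 22 of 298 (7.38%), led by *Zfp770* at 149.

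The groups also differed in where their members lay. All 5 histone members, 19 of the 22 zinc finger members and 6 of the 9 fibroblast and matrix members were within 500 nt of the start. By contrast 3 of the 9 endothelial, 2 of the 10 sarcomere and 0 of the 6 oxidative phosphorylation members were. A start-site peak and a flank of the same gene are not independent, and *Art5*, *Filip1l*, *Mamstr*, *Myom2* and *Sox17* had 3 members each.

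The share of all signal in peaks that lay at the low-CTCF promoters was compared between genotypes. In Pol II it was 1.30% ± 0.0364 (SD, n = 2) for WT, 1.28% ± 0.0703 for *Trdn-as* KO, and for *Mettl3* KO 1.29% ± 0.0105. The differences from WT were -0.0203 and -0.00329 percentage points and smaller than the spread between libraries of 1 genotype (exact two-sided permutation p = 1.00 for both). In CTCF the share was 0.400% ± 0.0185 for WT, 0.368% ± 0.0116 for *Trdn-as* KO, and for *Mettl3* KO 0.386% ± 0.00661 (exact permutation p = 0.33 and 0.67 against WT). Both *Trdn-as* KO libraries lay below both WT libraries, but with 2 against 2 the smallest p is 0.33. As a share of the signal at coding promoters alone, the Pol II differences from WT were -0.113 percentage points for *Mettl3* KO, with both of its libraries below both WT libraries (exact permutation p = 0.33), and -0.0570 for *Trdn-as* KO (p = 0.67). In the single IgG library of each genotype the share of all signal was 0.885%, 0.888% and 0.859%.

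Some of the low-CTCF promoters, that of the collagen gene *Col3a1* among them, had more Pol II in *Mettl3* KO than in WT hearts. In *Mettl3* KO against WT, 48 of the 774 low-CTCF promoters were higher and 7 lower (limma, adjusted p below 0.05), that is 7.11%, where 1.19% of all 52655 tested peaks were called, 0.712% higher and 0.482% lower. Within 500 nt of the start 39 of 388 members were higher and 0 lower (10.1%). Of the 386 farther members 9 were higher and 7 lower (4.15%). Among the promoters with both proteins and Pol II in the range of the members, 1.65% of 6469 were called. The median log2 fold change was 0.14 over the members, 0.27 over promoters with both and 0.08 over all tested peaks. The libraries of the 2 genotypes did not overlap at any of the 55, as they did not in either direction at 31.2% (higher) and 19.5% (lower) of all tested peaks. The rule took the mean of the same 6 libraries, so part of these calls restates the choice of members: of the 48, 19 have a mean below 50 without the *Mettl3* KO libraries, and of the 7, 4 do without the WT libraries, and for these only values are given here. When the Pol II threshold was applied to the 2 *Trdn-as* KO libraries alone, a choice made after seeing the data, 37 of 723 promoters were higher and 8 lower (6.22%), against 1.40% of promoters with both proteins chosen in the same way. With the median ratio within the antibody as scaling, 68 members were higher and 35 lower, or 13.3%, against 9.33% of promoters with both and 4.50% of all tested peaks. With only the libraries of the 2 genotypes in the fit the order turned, with 17.1% of the members and 31.5% of promoters with both called, and 9.23% of all. Scaled to uniquely mapped reads, which moved the median of all tested peaks from 0.08 to -0.06, 0 of the 774 passed, against 0.0587% of all tested peaks. An unadjusted p below 0.05 was found at 49 of the 774 and at 5.66% of all tested peaks. The count also depends on each of the 6 libraries: without either *Mettl3* KO library or without the first WT library 0 passed, without the second WT library 1 did, and without the first or the second *Trdn-as* KO library 132 and 134 did (17.1% and 17.3%, against 9.71% and 9.97% of all tested peaks and 31.8% and 31.9% of promoters with both). None of the 39 named differences with a call that were followed through the settings changed direction, but most settings could not have turned them. The naming rule asked for libraries that do not overlap, so only a rescaling of the libraries could change the sign.

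The 8 higher members with the smallest adjusted p are described one by one. The start-site peak of *Col3a1* (chr1:45350257-45351263) had Pol II values of 78 and 96 for WT, 131 and 92 for *Trdn-as* KO, and for *Mettl3* KO 230 and 246. The *Mettl3* KO libraries stood above all others, at a log2 fold change of 1.45 (SE 0.23, adjusted p = 0.00011). A second *Col3a1* peak 1506 nt downstream had 10 and 36 for WT against 81 and 110 for *Mettl3* KO. *Mfap4*, which encodes a protein of elastic fibres, had 29 and 26 for WT, 63 and 49 for *Trdn-as* KO, and for *Mettl3* KO 105 and 88. *Col5a3* had 44 and 23 for WT, 57 and 24 for *Trdn-as* KO, and for *Mettl3* KO 131 and 115, and these last 3 peaks are among the 19 that reach 50 through *Mettl3* KO. In these genes the *Trdn-as* KO libraries lay between the other genotypes or overlapped WT.

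The 8 members with the smallest adjusted p also held genes of other functions. *Fibin*, a secreted protein gene, had 39 and 61 for WT against 128 and 176 for *Mettl3* KO (1.60, SE 0.29). *Ifi27l2a*, an interferon-induced gene, had 37 and 44 for WT against 116 and 122 for *Mettl3* KO (1.54, SE 0.28). *Tmem45a* had 44 and 62 for WT against 150 and 141 for *Mettl3* KO (1.46, SE 0.27), and the netrin receptor gene *Unc5c* had 31 and 40 for WT against 110 and 117 for *Mettl3* KO and is also among the 19. At all 8 both *Mettl3* KO libraries also exceeded every *Trdn-as* KO library, while exceeding WT was part of the rule that chose them. Of the 48, 39 lay within 500 nt of the start. Over all 48 the log2 fold changes ran from 0.82 to 2.24, and the largest is that of the second *Col3a1* peak, which is among the 19.

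**Figure D2:**
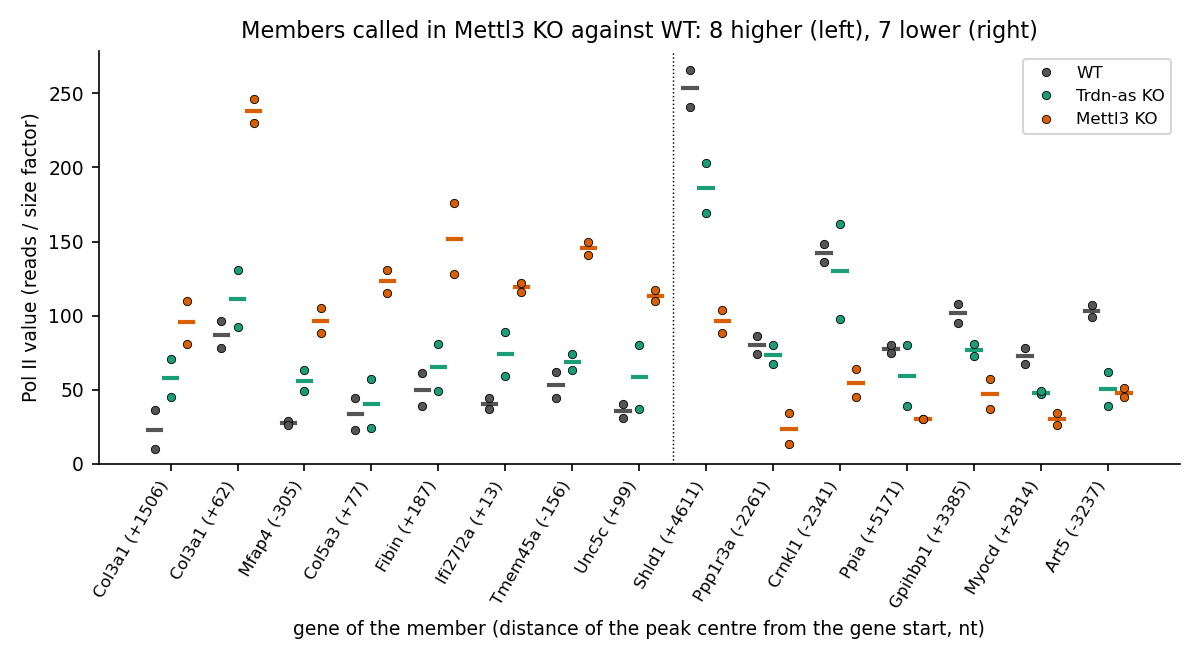
Pol II value (y axis, reads divided by the size factor) at the 8 higher and 7 lower members of *Mettl3* KO against WT chosen by the rule (x axis, with the distance of the peak centre from the gene start in nt), points for single libraries and bars for the mean of 2. By the rule the *Mettl3* KO and WT points do not overlap at any of these peaks. The 7 lower peaks lie 2261 to 5171 nt from the start.

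The fixed list of fibroblast and matrix genes had 6 of its 9 members higher and 0 lower, with a median log2 fold change of 1.14, and macrophage genes had 1 of 2 higher. The peaks of *Mmp2* and *Pdgfra* and the second peak of *Col3a1*, which are in these 6, reach 50 through *Mettl3* KO. Among promoters with both proteins the same list also had 6 of 18 higher and 0 lower, with a median of 0.71. *Fbln1*, a fibulin of the matrix, had 41 and 54 for WT against 117 and 125 for *Mettl3* KO (1.34, adjusted p = 0.0046). *Fbln2* had 121 and 103 for WT against 228 and 208 for *Mettl3* KO (0.96, adjusted p = 0.021). *Mmp2*, a gelatinase, had 39 and 51 for WT against 103 and 96 for *Mettl3* KO. *Spi1*, the PU.1 factor of myeloid cells, had 38 and 54 for WT against 107 and 102 for *Mettl3* KO (1.19, adjusted p = 0.023), while the macrophage gene *Cd68* had 110 and 126 for WT against 104 and 75 for *Mettl3* KO. The median was -0.22 over the 9 endothelial members, 0.14 over the 10 sarcomere members and 0.12 over the 22 zinc finger members, and none of these 41 passed in this comparison.

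Markers of fibroblasts moved with these members. The Pol II sum over the promoter peaks of 5 fibroblast markers (*Col1a1*, *Col1a2*, *Pdgfra*, *Dcn* and *Tcf21*, of which the *Dcn* peak is a member) was 795 and 827 for WT, 1185 and 851 for *Trdn-as* KO, and for *Mettl3* KO 1599 and 1556, or 1.95 times WT in *Mettl3* KO. The sum over 8 cardiomyocyte markers was 29440 and 31304 for WT against 29961 and 30354 for *Mettl3* KO, or 0.993 times WT. That over the 4 endothelial markers with a peak was 1.06 times WT. The 3 macrophage markers with a peak summed to 44 and 51 for WT against 64 and 62 for *Mettl3* KO. The part of cell composition in the result was not tested.

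The other antibodies were read at the same 48 promoters. Summed CTCF was 597 and 591 for WT, 665 and 671 for *Trdn-as* KO, and for *Mettl3* KO 772 and 774, a ratio of 1.30 to WT, given with no test. Without the 19 that reach 50 through *Mettl3* KO it was 377 and 357 for WT against 471 and 479 for *Mettl3* KO, a ratio of 1.29 over 29 promoters. CTCF was higher in *Mettl3* KO at 41 of the 48 and lower at 7, with a median log2 fold change of 0.29, while over all 769 members tested the median was -0.11. No single one of them passed the CTCF test. Summed IgG was 1017 in WT and 1086 in *Mettl3* KO, a ratio of 1.07, while over all 774 members the IgG ratio was 0.928 and the CTCF ratio 0.933. Summed Pol II at these sites, by which they were chosen, was 2573 and 2816 for WT against 6153 and 6223 for *Mettl3* KO.

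**Figure D3:**
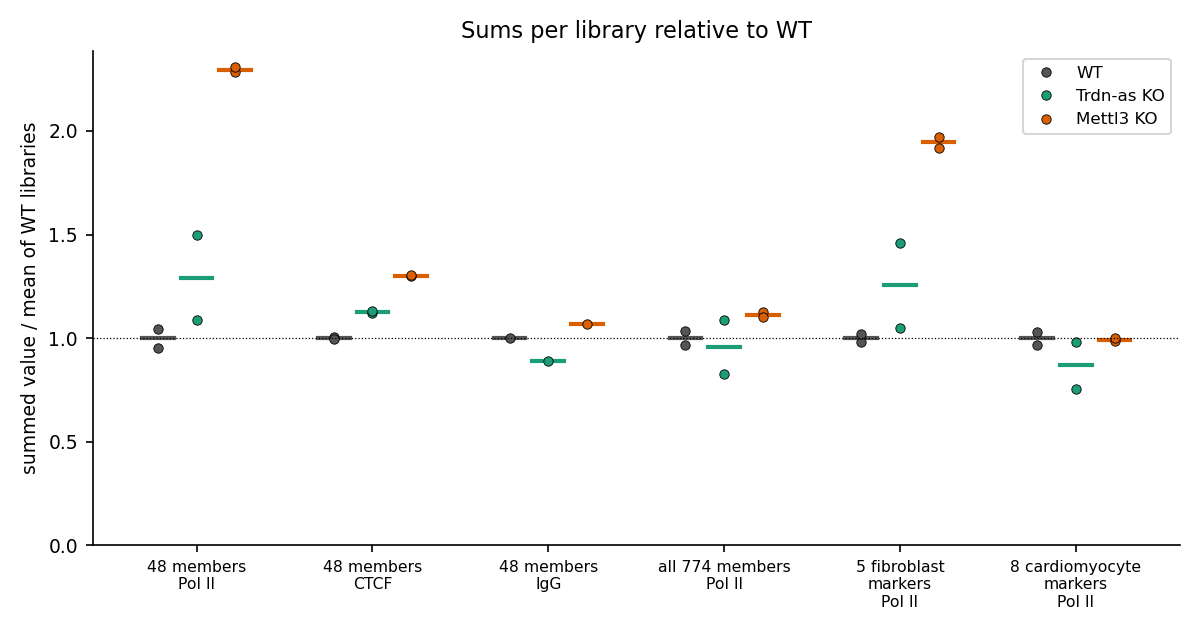
Values summed per library and divided by the mean of the WT libraries (y axis, 1 is WT) for the 48 members higher in *Mettl3* KO (Pol II, CTCF and IgG), all 774 members, and fibroblast and cardiomyocyte markers. Points are libraries and bars their mean, and the *Mettl3* KO mean is 2.30 for Pol II, 1.30 for CTCF and 1.07 for IgG at the 48, 1.95 for fibroblast markers and 0.993 for cardiomyocyte markers.

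The 7 lower members lay away from the gene starts, with 0 of 7 within 500 nt. The peak assigned to *Shld1* (chr2:132532743-132534180), 4611 nt downstream of its start, had 241 and 266 for WT, 203 and 169 for *Trdn-as* KO, and for *Mettl3* KO 104 and 88 (-1.39, SE 0.21, adjusted p = 4.3e-05). *Ppp1r3a*, the glycogen-targeting subunit of a phosphatase in striated muscle, had 86 and 74 for WT against 34 and 13 for *Mettl3* KO in a peak 2261 nt upstream. *Myocd*, the cofactor of serum response factor in heart and smooth muscle, had 78 and 67 for WT, 47 and 49 for *Trdn-as* KO, and for *Mettl3* KO 34 and 26. At these 3 peaks both *Mettl3* KO libraries were below the other 4. The peak of *Crnkl1* also lies in *Cfap61* (-1.39, adjusted p = 0.0012), and a flank of *Gpihbp1* fell by 1.12 on the log2 scale (adjusted p = 0.027). The peaks of *Ppp1r3a*, *Myocd*, *Ppia* and *Art5* are the 4 that reach 50 through WT.

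Members near the start and farther from it differed in how their Pol II stood in *Mettl3* KO. In *Mettl3* KO against WT the median log2 fold change was 0.31 for members within 500 nt, of which 80.7% had a positive value, and -0.13 for the farther members, of which 39.9% did. Of promoters with both proteins, at any distance, 87.6% had a positive value. Within a library, where no scaling enters, the summed Pol II at start-site members divided by that at farther members was 1.03 and 0.989 for WT, 1.09 and 1.10 for *Trdn-as* KO, and for *Mettl3* KO 1.36 and 1.39. The ratio was 1.38 ± 0.0233 (SD, n = 2) in *Mettl3* KO and 1.01 ± 0.0271 in WT, with no overlap (exact permutation p = 0.33, the smallest possible). Promoters with both proteins had ratios of 2.81 ± 0.0267 and 2.60 ± 0.0413. For the 723 promoters chosen on *Trdn-as* KO alone the medians were 0.28 near the start and -0.15 farther away, and for promoters with both proteins chosen in the same way 0.29 and 0.17. In IgG the members' ratio was 0.849 for WT, 0.784 for *Trdn-as* KO, and for *Mettl3* KO 0.869. In CTCF it was 1.02 and 0.991 for WT, 1.02 and 1.05 for *Trdn-as* KO, and for *Mettl3* KO 1.09 and 1.06, so that the *Mettl3* KO libraries were the highest there too. The cumulative plot of the differences shows the distance between the member curves.

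**Figure D4:**
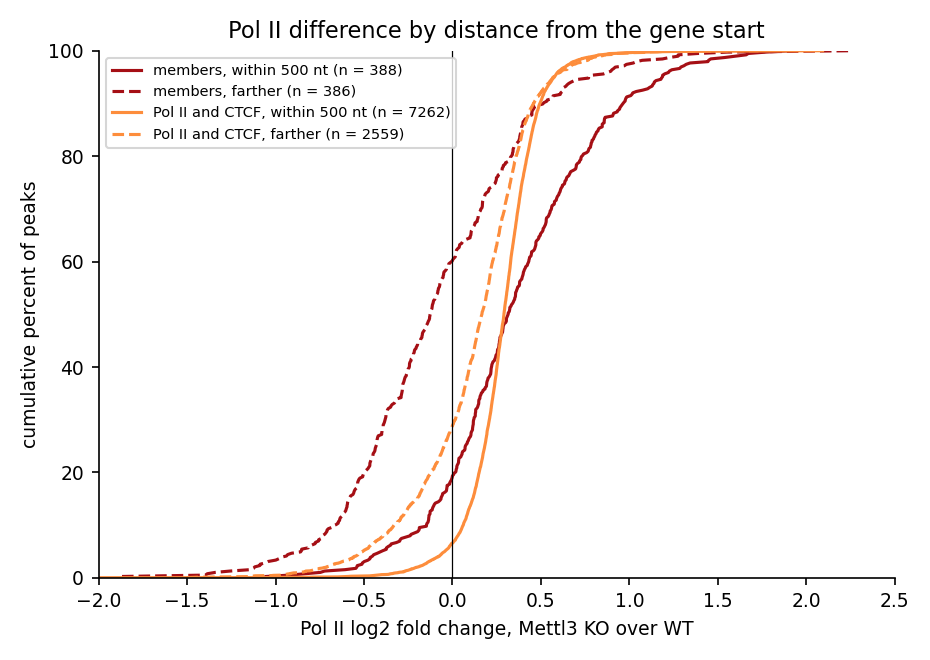
Cumulative percent of peaks (y axis) against the Pol II log2 fold change of *Mettl3* KO over WT (x axis) for members (dark red) and promoters with both proteins (orange), within 500 nt of the start (solid) or farther (dashed). The member curves cross the middle at 0.31 and -0.13.

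Few of these promoters differed in Pol II between *Trdn-as* KO and WT hearts. In *Trdn-as* KO against WT 1 member was higher and 2 were lower (limma, adjusted p below 0.05), or 0.388%, where 0.304% of all tested peaks were called, 0.0798% higher and 0.224% lower. *Ceacam1* (chr7:25176564-25177353, centre 69.5 nt downstream of the start) had 113 and 112 for WT, 31 and 18 for *Trdn-as* KO, and for *Mettl3* KO 98 and 107. Both *Trdn-as* KO libraries were far below the other 4 (-2.20, SE 0.29, adjusted p = 7.4e-07). Over the settings the *Ceacam1* difference ran from -2.78 to -1.83, and it did not pass without a filter on low values or without a variance trend. *Bmf*, a pro-apoptotic BH3-only gene, had 127 and 140 for WT, 77 and 47 for *Trdn-as* KO, and for *Mettl3* KO 69 and 78 in a peak 4862 nt upstream of its start (-1.13, SE 0.27, adjusted p = 0.035). The *Col3a1* flank was the higher one, at 10 and 36 for WT against 45 and 71 for *Trdn-as* KO (1.51, SE 0.36, adjusted p = 0.035). That value rests on the WT libraries, as it was 0.64 without the first (adjusted p = 1) and 2.39 without the second (adjusted p = 0.044). The count is sensitive to single libraries: it was 31, all lower, without the first *Trdn-as* KO library, or 4.01% where 4.30% of all tested peaks were called, 0 without the first WT library and 1 without any other of the 6. Set directly against *Mettl3* KO, 4 members were higher and 30 lower in *Trdn-as* KO (4.39%, where 1.5% of all tested peaks were called, 0.355% higher and 1.15% lower), and 17 of these 34 were also among the 55 above. Those comparisons share the *Mettl3* KO libraries.

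The members with the smallest adjusted p in that direct comparison were mainly those already described. *Ifi211*, an interferon-inducible gene, had 101 and 97 for WT, 61 and 53 for *Trdn-as* KO, and for *Mettl3* KO 131 and 178 (-1.41, SE 0.26, adjusted p = 0.00053). *Myom2*, a protein of the sarcomeric M band, had 112 and 125 for WT, 112 and 57 for *Trdn-as* KO, and for *Mettl3* KO 179 and 190 (-1.20, SE 0.25, adjusted p = 0.0042), and *C1qtnf7* fell by 1.26 (adjusted p = 0.0042). Without the second *Trdn-as* KO library neither passed, at -0.71 for *Myom2* (adjusted p = 0.14) and -0.83 for *C1qtnf7* (adjusted p = 0.18). *Ppp1r3a*, *Crnkl1* and *Shld1* were higher by 1.75, 1.22 and 0.95, the first by 1.08 without the second *Mettl3* KO library (adjusted p = 0.57), and *Fbln2*, *Col3a1* and *Fibin* had log2 fold changes from -1.24 to -1.11. Of the 30 lower members, 9 reach 50 through *Mettl3* KO. The count rests on single libraries, as it rose without the first *Trdn-as* KO library and fell when any other library was left out. Without that first library promoters with both proteins were called more often than the members.

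CTCF differed at few of these promoters, which is a comparison of low values. In *Trdn-as* KO against WT 1 of the 769 members tested was higher and 3 were lower (limma, adjusted p below 0.05), or 0.52%, where 0.352% of 75629 tested peaks were called, 0.2% higher and 0.152% lower. *Ceacam1* had CTCF values of 22 and 25 for WT, 10 and 11 for *Trdn-as* KO, and for *Mettl3* KO 16 and 18. *Ifi211* had 24 and 23 for WT, 9 and 10 for *Trdn-as* KO, and for *Mettl3* KO 22 and 26, and *Bmf* had 28 and 27 for WT, 13 and 11 for *Trdn-as* KO, and for *Mettl3* KO 12 and 11 (-1.14, SE 0.20, adjusted p = 0.027). At *Ceacam1* and *Bmf* the lower CTCF stood beside the lower Pol II of the same comparison. *Unc5c* had 10 and 9 for WT against 25 and 22 for *Trdn-as* KO. Of these 4, *Ceacam1* and *Ifi211* are below 20 in the mean through *Trdn-as* KO and *Unc5c* through WT, so their differences are given as values with no test. None of the 4 calls was kept when any one of the 6 CTCF libraries was left out. In *Mettl3* KO against WT 0 of 769 passed (0.0132% of all tested peaks did), 136 had an unadjusted p below 0.05 (14.3% of all tested peaks did), and 10 passed with the median ratio within the antibody as scaling (1.30%, where 1.04% of all tested peaks did).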

How the data were processed

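ChIP-seq of mouse ventricles was performed by the authors with antibodies to the Pol II B1 subunit and CTCF and with IgG, in 18 samples, of which 3 input samples were not analysed here. The authors trimmed reads with Trimmomatic 0.39, aligned them to mm39 (GRCm39, Ensembl annotation) with STAR 2.7.11b, removed duplicates with Picard 3.1.1, kept unspliced unique reads outside rRNA and the mitochondrial genome, used MACS for peak calling, merged them over all samples and counted reads with featureCounts. The deposited values are this signal per peak and library, which the authors normalized with DESeq2 1.36.0 and which are rounded to whole numbers. They are no raw counts, so no count test was used.

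Pol II peaks were tested where 2 or more of the 6 libraries reached 10, and CTCF peaks where the mean reached 5, with limma 3.58.1 (R 4.3.3) on log2(value + 1), which understates changes of low peaks, fitting 3 genotypes together, with limma's trend on the variance, and adjusting by Benjamini-Hochberg over all tested peaks. All 774 members passed the Pol II filter and 769 the CTCF filter. The fit was tested on simulated data. Reads per library came from the spacing of the values, and ratios to IgG used the uniquely mapped totals that the study gives. Ratios and shares were compared with exact two-sided permutation tests. Nothing in the labels says that the 2 libraries of a group come from separate chromatin, so p-values measure the spread between libraries, which may be technical. The members, gene lists and tests were chosen with earlier results of these data known. Named were the 10 members with the highest Pol II, up to 8 members per direction and Pol II comparison and up to 3 per direction and CTCF comparison with the smallest adjusted p and no overlap of libraries, the highest and up to 4 called members of each list, and the 2 peaks on each side of each threshold. One member that this rule names is not reported here. Overlap with other genes was read from the gene coordinates of the file. CpG and motifs were read from GRCm38, whose coordinates were not mixed with those of the peaks. Python 3.11.15, pandas 2.3.3, scipy 1.17.1 and matplotlib 3.10.9 were used.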

Additional observations from a re-analysis of the deposited data

How the results depend on the processing

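With 2 libraries per group the number of calls depends on most choices, while none of the 39 named differences with a call changed direction in 581 comparisons with 15 settings, not all of which covered each. The counts below are of the 774 members, or of the members tested for CTCF, except where other members were chosen.

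For Pol II in *Mettl3* KO against WT, 55 were called, 20 at an adjusted p below 0.01, 103 with the median ratio within the antibody (13.3%, against 4.50% of all tested peaks), 132 with only the 2 genotypes in the fit (17.1% against 9.23%), and 0 without a filter on low values, without a variance trend and with libraries scaled to uniquely mapped reads. Leaving out 1 library gave 0 to 134. In *Trdn-as* KO against *Mettl3* KO, 34 were called, 10 at 0.01, 71 with the median ratio (9.17% against 3.07%), 4 with only the 2 genotypes, 55 with a pseudocount of 5 (7.11% against 2.43%), 2 with uniquely mapped reads, 0 without a filter and 0 without a trend, and 0 to 208 with 1 library left out. In *Trdn-as* KO against WT, 3 were called, 1 at 0.01, 9 with the median ratio (1.16% against 0.557%), 1 with only the 2 genotypes, 1 with a pseudocount of 0.5, 5 with a pseudocount of 5 (0.646% against 0.437%), 1 with uniquely mapped reads, 0 without a filter and 0 without a trend, and 0 to 31 with 1 library left out. For CTCF in *Trdn-as* KO against WT, 4 were called, and 0 at 0.01, without a filter, without a trend, with only the 2 genotypes and with any 1 library left out. In *Mettl3* KO against WT 10 were called with the median ratio and 0 in the other fits, those with 1 library left out included. With members chosen on the genotype outside the comparison, an alternative added after seeing the data, 45 of 723, 34 of 768 and 5 of 847 were called for Pol II in the order above. That is 6.22%, 4.43% and 0.590%, against 1.40%, 1.80% and 0.143% of promoters with both proteins chosen in the same way. For CTCF 2 of 823 were called in *Trdn-as* KO (0.243% against 0.205%) and 0 of 783 in *Mettl3* KO. The counts at an adjusted p below 0.01 have no share of all tested peaks beside them here. For Pol II in *Trdn-as* KO against *Mettl3* KO, 0.517% of members were called with only the 2 genotypes, against 0.243% of all tested peaks. With uniquely mapped reads it was 0.258% against 0.428%. In *Trdn-as* KO against WT these shares were 0.129% against 0.0893% and 0.129% against 0.241%. With a pseudocount of 0.5 that comparison gave 0.129% against 0.232%. The cause of the shifts in the counts was not tested.

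Scaling to uniquely mapped reads moved the median log2 fold change of all tested peaks from -0.07 to -0.67 in *Trdn-as* KO against WT and from -0.16 to -0.62 in *Trdn-as* KO against *Mettl3* KO. Replicate numbers did not pair the libraries, as deviations of same-numbered libraries correlated between -0.194 and 0.00635. With the replicate block 60, 38 and 4 members were called for Pol II, in the order above (1.44%, 1.80% and 0.382% of all tested peaks). For CTCF 2 and 0 were called in *Trdn-as* KO and *Mettl3* KO (0.204% and 0.00264% of all tested peaks).

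Against only coding-promoter peaks, the difference in share from WT was -0.113 percentage points for Pol II in *Mettl3* KO, -0.0664 for CTCF in *Trdn-as* KO and -0.040 for CTCF in *Mettl3* KO. Leaving out 1 library gave Pol II differences from -0.0700 to 0.0294 for *Trdn-as* KO and from -0.0290 to 0.0225 for *Mettl3* KO, and CTCF differences from -0.0453 to -0.0191 and from -0.0270 to -0.000805. A count test on recovered reads was not run because the rounded values do not give whole reads, and CTCF was not scaled to uniquely mapped reads because 1 read could not be resolved in the *Mettl3* KO libraries. The single IgG library of each genotype allows no error for ratios to IgG.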
